A study of Mus musculus with 2 samples.

Results

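The genes described here encode the killer cell lectin-like receptors and NKp46, the receptors through which natural killer (NK) cells read other cells. They were taken by name: every gene of the count table whose symbol begins with Klr and one of the subfamily letters a, b, c, d, e, g, i or k, and Ncr1, which gave 27 of 30538 genes. The table holds RNA-seq read counts from splenic cells of mice 3 days after intravenous injection of 100000 Listeria monocytogenes. About 100000 cells positive for CD11b, negative for Ly6G and low for Ly6C, called resident splenic macrophages in the labels, were sorted for each of 2 libraries. One library came from infected C57BL/6 mice and the other from infected Ch25h-/- mice, which lack the enzyme that makes 25-hydroxycholesterol, and no uninfected group was analysed here. The number, age and sex of the mice and the background strain of the mutants are not given in the sources used here.

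Each genotype had 1 library, so there is no replicate check and no p-value. Ratios are Ch25h-/- over C57BL/6, each with an exact 95% interval for the counting error alone, which leaves out the variation between mice, sorts and library preparations. Levels are CPM, the scaled count relative to library size, after scaling with TMM, a factor that evens out library composition. Genes that averaged at least 1 CPM across the libraries are termed measured, and one was called higher or lower when it differed at least 2-fold with its interval on 1 side of a log2 ratio of 0. The libraries held 16957371 counts for C57BL/6 and 15986392 for Ch25h-/-. Ch25h itself had 3 and 0 counts, at or under the floor of 3 counts, so it does not check the genotype labels at this depth.

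NK cells kill infected or transformed cells and release interferon-gamma, and early in Listeria infection of the spleen they are a source of that cytokine. Whether an NK cell responds depends on the sum of signals from activating and inhibitory receptors. Inhibitory members carry a tyrosine motif that recruits phosphatases, while activating members lack it and signal through small adaptor proteins such as DAP12. Most of the lectin-like receptors are encoded in the NK gene complex, and most of the Ly49 members recognise MHC class I molecules. Mature mouse NK cells carry CD11b on their surface, the positive marker of the sort, and NK lineage markers were not part of the gate that the labels give.

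Of the 27 genes, 26 lie on chromosome 6 and Ncr1 lies on chromosome 7 (GRCm38, GENCODE M21). The RefSeq promoter table (GRCm38.p6, 250 bases before to 50 bases after the transcription start) held 24 of them. The stretches below are shown because they belong to members at both ends of the range of ratios. Among measured members Ncr1, Klrc2 and Klra3 had the largest log2 ratios, Klri1 and Klra2 the smallest, and Klra9 is the closest relative of Klra3 in this window. Each is written 5′ to 3′ in the direction of its gene, and capitals mark the RUNX core letters TGTGGT or their reverse complement ACCACA.
Ncr1 (chr7:4337465-4337764, plus strand): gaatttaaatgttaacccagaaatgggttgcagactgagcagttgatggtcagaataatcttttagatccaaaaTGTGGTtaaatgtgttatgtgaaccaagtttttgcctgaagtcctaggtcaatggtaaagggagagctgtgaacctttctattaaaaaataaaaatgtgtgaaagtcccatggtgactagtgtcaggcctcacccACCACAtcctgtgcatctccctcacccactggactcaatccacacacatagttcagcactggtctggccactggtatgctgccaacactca
Klrc2 (chr6:129660547-129660846, minus strand): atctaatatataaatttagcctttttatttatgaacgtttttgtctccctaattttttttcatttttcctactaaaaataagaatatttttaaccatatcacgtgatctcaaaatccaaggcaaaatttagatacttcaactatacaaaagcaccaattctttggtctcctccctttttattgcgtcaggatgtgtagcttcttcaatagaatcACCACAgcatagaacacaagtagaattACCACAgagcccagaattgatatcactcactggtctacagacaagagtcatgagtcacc
Klra3 (chr6:130337577-130337876, minus strand): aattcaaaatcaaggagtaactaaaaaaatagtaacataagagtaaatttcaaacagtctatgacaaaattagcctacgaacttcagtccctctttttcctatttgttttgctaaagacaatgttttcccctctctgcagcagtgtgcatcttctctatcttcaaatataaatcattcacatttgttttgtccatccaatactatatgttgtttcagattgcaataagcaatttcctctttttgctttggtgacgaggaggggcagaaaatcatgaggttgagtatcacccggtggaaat
Klra9 (chr6:130193063-130193362, minus strand): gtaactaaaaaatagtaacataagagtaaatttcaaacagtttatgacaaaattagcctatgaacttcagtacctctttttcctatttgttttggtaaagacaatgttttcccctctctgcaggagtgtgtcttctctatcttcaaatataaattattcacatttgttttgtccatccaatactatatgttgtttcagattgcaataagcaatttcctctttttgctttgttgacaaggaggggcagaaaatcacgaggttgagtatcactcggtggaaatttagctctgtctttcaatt
Klra2 (chr6:131247313-131247612, minus strand): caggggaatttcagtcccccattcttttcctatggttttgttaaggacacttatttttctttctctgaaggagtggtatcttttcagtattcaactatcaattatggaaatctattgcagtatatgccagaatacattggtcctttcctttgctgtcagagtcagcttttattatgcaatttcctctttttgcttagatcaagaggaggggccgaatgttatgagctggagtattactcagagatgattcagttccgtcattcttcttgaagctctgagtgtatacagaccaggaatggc
Klri1 (chr6:129717083-129717382, minus strand): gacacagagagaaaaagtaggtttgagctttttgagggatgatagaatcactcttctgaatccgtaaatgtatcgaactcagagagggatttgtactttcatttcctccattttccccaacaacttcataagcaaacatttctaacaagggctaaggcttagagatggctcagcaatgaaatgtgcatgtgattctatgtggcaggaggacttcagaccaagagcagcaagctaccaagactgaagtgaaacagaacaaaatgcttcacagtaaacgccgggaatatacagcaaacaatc
Ncr1 held a RUNX core on each strand and Klrc2 held 2 on the opposite strand, whereas Klra3, Klra9, Klra2 and Klri1 held none. Among the members with a promoter, 9 of 24 held this core on either strand, against 16.9% of all 27025 promoters in the table. The letters AGGTGT (T-box) were in 1 of 24 member promoters and 13.9% of all promoters, and AGGAAG (ETS) in 7 of 24 and 35.1%. The Klra3 and Klra9 windows were 85.0% identical over their alignment (48 differences), the second closest pair within a subfamily after Klra4 and Klra8 (86.1%, 42 differences). The last 40 bases of 22 of the 24 promoters stood in a GENCODE M21 transcript of the same gene, and those of Klra3 and Klrb1 did not. A match of letters is a description of the sequence and not a binding site.

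NK receptor transcripts were readily detected in both libraries, and most were more abundant in the Ch25h-/- library. Of the 27 genes, 25 were measured, and 15 of these had at least 50 CPM in both libraries. A total of 24 of the 25 had a log2 ratio above 0, where 51.8% of all 11972 measured genes did. Called higher were 9 of 25 (Klra1, Klra3, Klra7, Klra10, Klrc2, Klrc3, Klrd1, Klre1 and Ncr1), against 2.07% of all measured genes. None was called lower, against 5.77%. The median log2 ratio was 0.93, and that of all measured genes was 0.01. At 1.5-fold, 21 of 25 were higher, against 7.35% of all measured genes. The whole interval lay above 0 for 22 of 25, against 31.0%, and above 2-fold for 6 of 25, against 0.560%. In bulk RNA, a larger share of cells of a type and more RNA per cell cannot be told apart, and this holds for every ratio below.

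Of all counts, the 27 genes made up 0.228% for C57BL/6 (0.226 to 0.231%, Clopper-Pearson) and 0.425% for Ch25h-/- (0.422 to 0.428%). Their summed level was 1.89-fold higher in the latter. The 2 genes that were not measured were Klrg2, with 0 counts in each library (a floor of 0.175 and 0.189 CPM), and Klrb1, the gene of the inhibitory receptor NKR-P1G, with 14 and 11 counts.

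**Figure D1:**
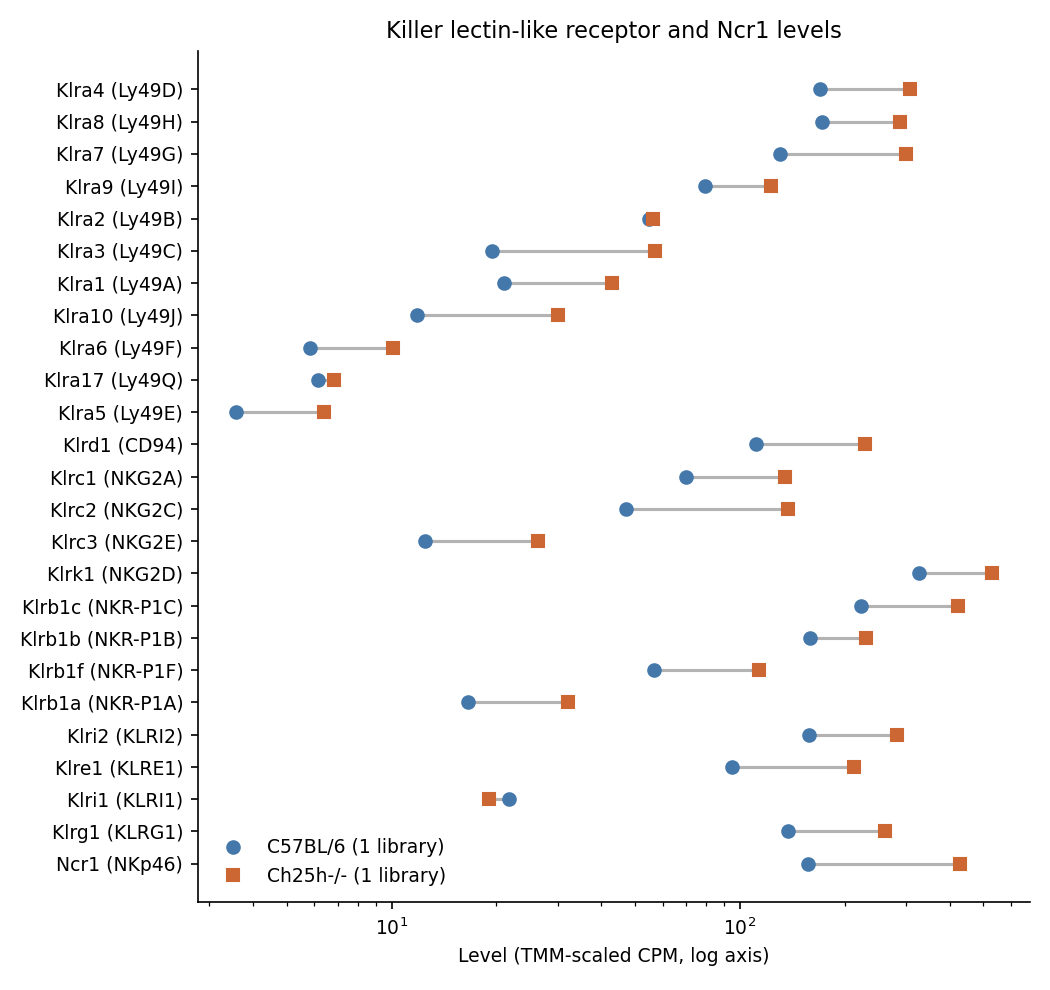
Level of each measured receptor gene (TMM-scaled CPM, log axis) in the C57BL/6 library (circles) and the Ch25h-/- library (squares), grouped by subfamily, 1 library per genotype. The Ch25h-/- square lies to the right for 24 of 25 genes, Klra2 and Klra17 nearly coincide, and Klri1 is the exception.

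Ncr1 encodes NKp46, an activating immunoglobulin-type receptor that marks NK cells and group 1 innate lymphoid cells and is the one member here outside the lectin family (ENSMUSG00000062524, chromosome 7, 4337724 to 4345164, plus strand). It had 2677 counts (156 CPM) for C57BL/6 and 6796 counts (429 CPM) for Ch25h-/-, and the log2 ratio was 1.46 (1.39 to 1.52). Per kb of annotated exon it moved from the fourth to the first place among the measured members, at 102 and 279 RPKM. Its share of the members' counts was 6.91% (6.66 to 7.17%) in C57BL/6 and between 9.78 and 10.2% in Ch25h-/-. No window of 50 bases of its transcripts occurred in a transcript of another gene.

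Klrk1 encodes NKG2D, an activating receptor for stress-induced ligands that signals through DAP10 and DAP12 (ENSMUSG00000030149, chromosome 6, 129610323 to 129623864). It had the most counts of all members, 5590 (327 CPM) in C57BL/6 and 8380 (529 CPM) in Ch25h-/-. The log2 ratio of 0.70 (0.65 to 0.74) did not reach 2-fold, and its interval lay wholly under that of Ncr1. Its annotated exons span 7183 bases, the longest of the members, and per kb it ranked number 10 in both libraries.

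CD94, the product of Klrd1, forms heterodimers with the NKG2 proteins of the Klrc genes, and these pairs recognise the class Ib molecule Qa-1. Klrd1 itself (ENSMUSG00000030165, chromosome 6, 129591782 to 129598775) had 111 CPM in C57BL/6 and 229 CPM in Ch25h-/- (log2 ratio 1.04, interval 0.96 to 1.12). Klrc1, encoding the inhibitory partner NKG2A, had 69.8 and 135 CPM (0.95, interval 0.84 to 1.05), just short of 2-fold. Klrc2, encoding the activating partner NKG2C (ENSMUSG00000052736, chromosome 6, 129647496 to 129660689), had 804 and 2179 counts, or 47.0 and 138 CPM (1.55, interval 1.43 to 1.67). Klrc3, encoding the activating NKG2E, had 12.4 and 26.3 CPM (1.08, interval 0.84 to 1.32).

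The makeup of the NKG2 counts differed between the libraries by more than the counting intervals. Klrc1 made up 54.0% of the Klrc counts in C57BL/6 (51.9 to 56.1%) and 45.1% in Ch25h-/- (43.7 to 46.5%). For Klrc2 the share was 36.3% (34.3 to 38.4%) and 46.1% (44.7 to 47.5%). These are shares of raw counts, and Klrc2 has 5812 exon bases against 1984 for Klrc1. Per kb of exon, Klrc1 had 35.2 RPKM in C57BL/6 and 67.8 in Ch25h-/-, and Klrc2 had 8.08 and 23.7. These genes are near copies of each other. Of the windows of 100 bases in their transcripts, 85.4% for Klrc1, 92.9% for Klrc2 and 84.0% for Klrc3 occurred in no other gene, and with 50 bases the shares were 61.4%, 83.7% and 63.7%. How reads that match several genes were counted, and how long the reads were, is not given in the sources used here, so the single Klrc values are less certain than their sum. The sum over Klrd1 and the Klrc genes was 2.19-fold higher in the Ch25h-/- library.

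The Ly49 receptors of the Klra genes are homodimers that bind classical MHC class I molecules, and 11 of them were in the table. The activating pair, Klra4 (Ly49D) and Klra8 (Ly49H), signals through DAP12, and Ly49H is known for recognising a protein of mouse cytomegalovirus. Klra4 (ENSMUSG00000079852, chromosome 6, 130043731 to 130067271) had 170 CPM in C57BL/6 and 308 CPM in Ch25h-/- (log2 ratio 0.85, interval 0.79 to 0.92). Klra8 (ENSMUSG00000089727, chromosome 6, 130115226 to 130129898) had 172 and 289 CPM (0.75, interval 0.68 to 0.82). Both stayed under 2-fold. Per kb of exon they were the 2 most abundant members in the C57BL/6 library, at 137 RPKM for Klra4 and 146 for Klra8. Klra8 shared 13.7% of its windows of 100 bases and 20.4% of those of 50 bases with the pseudogene Klra14-ps. Of its 50-base windows 66.9% occurred in no other gene.

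The inhibitory Ly49 genes spread more widely, and the 4 Ly49 genes called higher were all of this kind. Klra7, encoding Ly49G, was the most abundant of them (ENSMUSG00000067599, chromosome 6, 130218605 to 130233322) and went from 2233 counts (130 CPM) to 4764 counts (301 CPM), a log2 ratio of 1.20 (1.13 to 1.28). It took 19.4% of Ly49 counts in C57BL/6 (18.6 to 20.1%) and 24.5% in Ch25h-/- (23.9 to 25.1%).

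Klra3, encoding Ly49C (ENSMUSG00000067591, chromosome 6, 130323289 to 130337574), had 333 and 906 counts, or 19.5 and 57.2 CPM (1.56, interval 1.37 to 1.74). Its near relative Klra9, encoding Ly49I, had 1360 and 1944 counts, or 79.5 and 123 CPM, with a log2 ratio of 0.63 (0.53 to 0.73). The intervals of these relatives, whose promoter windows are printed above, did not overlap. They shared 13.1% of the 50-base windows of Klra9. Of all 50-base windows, 79.3% for Klra3 and 68.5% for Klra9 occurred in no other gene, and with 100 bases the shares were 98.2% and 95.9%.

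The remaining inhibitory Ly49 genes of NK cells were at lower levels than Klra7 and Klra9. Klra10 (Ly49J) had 11.8 and 30.1 CPM (1.35, interval 1.11 to 1.60). Of its 50-base windows 60.2% occurred in no other gene and 21.4% were shared with Klra9, so its value and those of the other Ly49 genes that share windows also rest on how reads matching several genes were counted. Klra1 (Ly49A) had 360 and 678 counts (1.02, interval 0.84 to 1.21). Klra1 falls under 2-fold when total counts replace TMM scaling. Klra6 (Ly49F), with 5.84 and 10.1 CPM, and Klra5 (Ly49E), with 3.56 and 6.38 CPM, had log2 ratios of 0.79 and 0.84, and their intervals reached down to 0.42 and 0.37.

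A pair of Ly49 genes known from myeloid cells had the smallest ratios of the Ly49 genes. Klra2, encoding the inhibitory Ly49B of myeloid cells (ENSMUSG00000030187, chromosome 6, 131219223 to 131247362), had 935 counts (54.6 CPM) and 893 counts (56.4 CPM), a log2 ratio of 0.04 (-0.09 to 0.18). Klra17, encoding Ly49Q, which plasmacytoid dendritic cells and other myeloid cells carry, had 105 and 108 counts, or 6.14 and 6.82 CPM (0.15, interval -0.25 to 0.55). The intervals of both include a ratio of 1, and that of Klra2 lies under those of the other 9 measured Ly49 genes. The interval of Klra17 overlaps those of Klra9, Klra6 and Klra5. With the NK-type members higher, the share of Klra2 among Ly49 counts was 8.10% (7.61 to 8.62%) in C57BL/6 and 4.59% (4.30 to 4.89%) in Ch25h-/-. No 50-base window of Klra2 or Klra17 occurred in another gene.

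**Figure D2:**
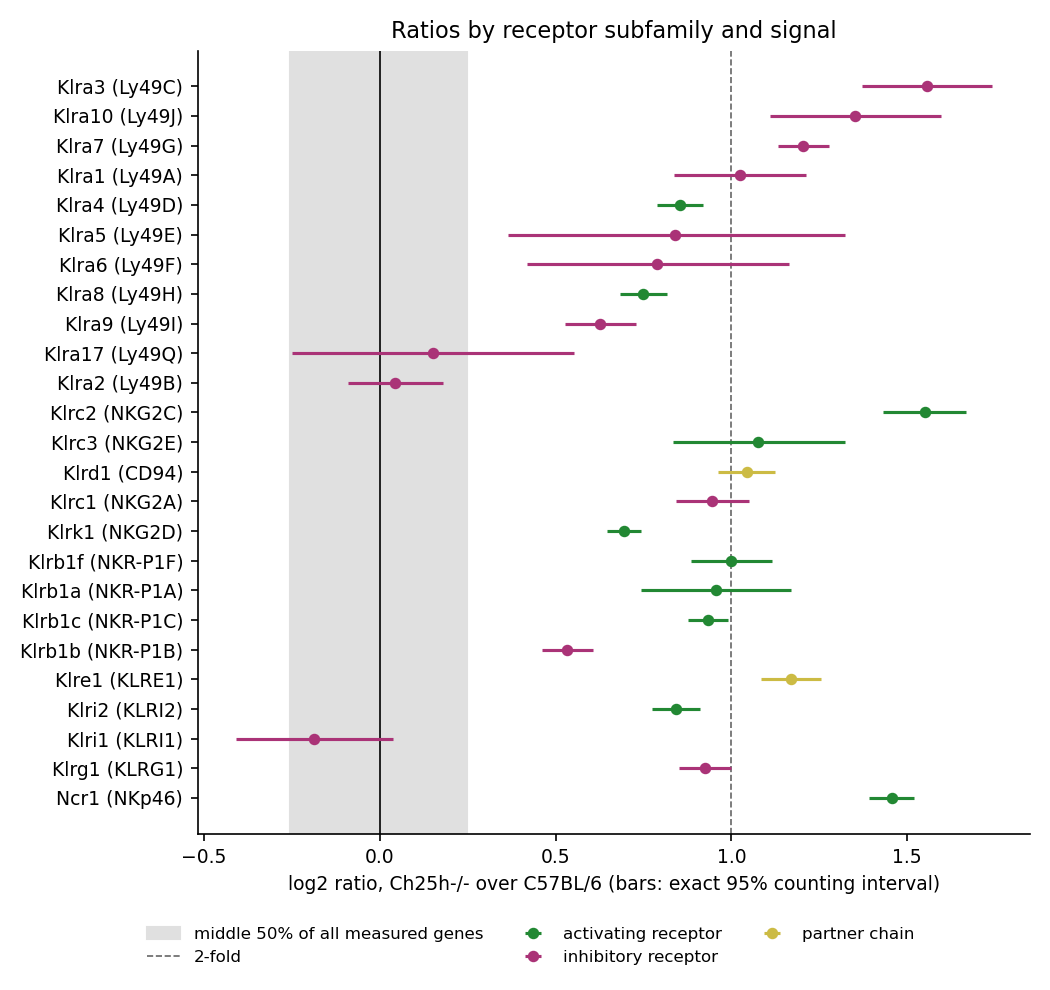
log2 ratio of Ch25h-/- over C57BL/6 for each measured receptor gene with its exact 95% counting interval, grouped by subfamily and coloured by signal. The grey band holds the middle 50% of all measured genes (-0.26 to 0.25) and the dashed line marks 2-fold. Klra2, Klra17 and Klri1 lie in the band, and Klra3, Klrc2 and Ncr1 lie furthest to the right.

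NKR-P1 receptors, the products of the Klrb1 genes, bind Clr proteins, the lectin-like products of neighbouring Clec2 genes. Klrb1c encodes NK1.1, the antigen commonly used to identify NK cells in C57BL/6 mice (ENSMUSG00000030325, chromosome 6, 128778485 to 128789215). It had 3797 counts (222 CPM) and 6716 counts (424 CPM), a log2 ratio of 0.93 (0.88 to 0.99). The activating members Klrb1a (16.6 and 32.2 CPM) and Klrb1f (56.7 and 113 CPM) followed it closely, with log2 intervals of 0.74 to 1.17 and 0.89 to 1.11. Klrb1f lay just under 2-fold and passes it with upper quartile scaling.

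Klrb1b encodes the inhibitory NKR-P1B, the receptor for Clr-b, and it had the smallest ratio of the measured NKR-P1 genes. It had 2714 counts (159 CPM) in C57BL/6 and 3638 counts (230 CPM) in Ch25h-/-, a log2 ratio of 0.53 (0.46 to 0.61). Its share of NKR-P1 counts was 34.9% (33.8 to 36.0%) and 28.7% (27.9 to 29.5%), while that of Klrb1c was 48.8% (47.7 to 49.9%) and 53.0% (52.1 to 53.9%). A gene of the same strand, Gm44511, which is not among the rows of the table, shares 26.9% of the exon bases of Klrb1b and 13.9% of those of Klrb1c, so their levels rest on how such reads were assigned.

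KLRE1 has no known signalling motif of its own and pairs with KLRI1 into an inhibitory receptor or with KLRI2 into an activating one. Klre1 (ENSMUSG00000050241, chromosome 6, 129577905 to 129585827) had 94.7 and 213 CPM (log2 ratio 1.17, interval 1.08 to 1.26). Klri2 had 158 and 283 CPM (0.84, interval 0.77 to 0.91). Klri1 (ENSMUSG00000067610, chromosome 6, 129697218 to 129717132) was the one measured member with a ratio under 0, with 371 counts (21.7 CPM) and 302 counts (19.1 CPM), a log2 ratio of -0.19 (-0.41 to 0.04). Its interval includes 0 and lies wholly below those of Klre1 and Klri2. Among the counts of Klri1 and Klri2, Klri1 made up 12.1% (11.0 to 13.3%) in C57BL/6 and 6.31% (5.64 to 7.04%) in Ch25h-/-. These are shares of raw counts, and Klri1 has 838 exon bases against 3913 for Klri2. With windows of 100 bases neither Klri1 nor Klri2 shared sequence with another gene. With 50 bases, 94.2% of the windows of Klri1 and 97.2% of those of Klri2 occurred in no other gene.

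Klrg1 encodes an inhibitory receptor for cadherins that marks late stages of NK cell maturation and effector T cells (ENSMUSG00000030114, chromosome 6, 122270596 to 122282882). It had 2346 counts (137 CPM) in C57BL/6 and 4122 counts (260 CPM) in Ch25h-/-, a log2 ratio of 0.92 (0.851 to 0.998). Its share of the members' counts was 6.06% and 6.07%, level within the counting intervals.

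The balance of activating and inhibitory transcripts differed by family. A ratio of summed counts within a library does not depend on the scaling between libraries. In the Ly49 family it was 1.03 in C57BL/6 (0.99 to 1.07) and 0.94 in Ch25h-/- (0.92 to 0.97), and without the myeloid genes Klra2 and Klra17 it was 1.26 (1.21 to 1.31) and 1.05 (1.02 to 1.08). It went the other way in the NKR-P1 family, at 1.85 (1.77 to 1.94) and 2.47 (2.38 to 2.57). The same direction was seen for the NKG2 genes, at 0.85 (0.78 to 0.93) and 1.22 (1.15 to 1.29), and for Klri2 over Klri1, at 7.27 (6.52 to 8.13) and 14.8 (13.2 to 16.7). Over all members with a role the ratio was 1.86 (1.82 to 1.90) and 2.01 (1.98 to 2.05). This pooled ratio counts Ncr1, with 2677 and 6796 counts, as activating and the myeloid genes Klra2 and Klra17 as inhibitory. It depends on these genes, and the ratio without them was not computed, so it does not show a general shift. Among measured genes, 3 of 10 activating and 4 of 13 inhibitory members were called higher, against 2.07% of all measured genes, with median log2 ratios of 0.94 and 0.84. These are raw counts of genes of unequal length, so the height of a ratio is not a ratio of molecules, and where a family has several genes on a side its change between the libraries depends on their lengths too. Summed per kb of exon, the NKG2 ratio was 0.71 in C57BL/6 and 0.88 in Ch25h-/-, a log2 change of 0.30 in place of 0.52 from raw counts. The change per kb was -0.17 in the Ly49 family against -0.13 from raw counts, and 0.42 from either in the NKR-P1 family. Klri2 over Klri1 was 1.56 in C57BL/6 and 3.18 in Ch25h-/- per kb, and its log2 change was 1.03 from either. The NKG2 and Ly49 ratios also rest on how reads matching several genes were counted, which the intervals leave out. So does the NKR-P1 ratio, whose measured inhibitory gene Klrb1b shares 26.9% of its exon bases with Gm44511.

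**Figure D3:**
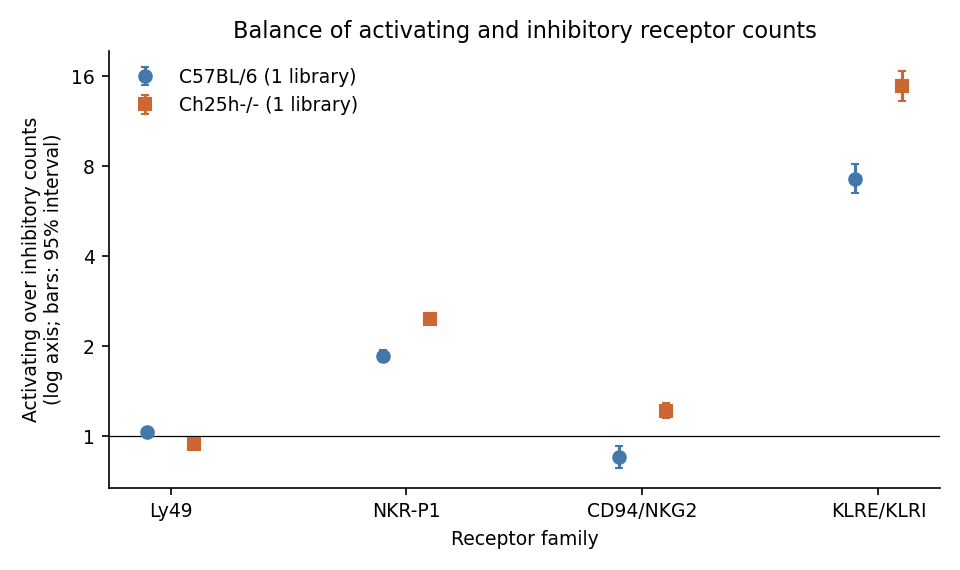
Summed counts of activating over inhibitory members (log axis, bars exact 95% counting intervals) in 4 receptor families in the C57BL/6 library (circles) and the Ch25h-/- library (squares). The square is higher in the NKR-P1, CD94/NKG2 and KLRE/KLRI families and lower in the Ly49 family, where the values are 1.03 and 0.94. Counts are not divided by exon length, and the intervals leave out how reads matching several genes were counted.

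Other NK cell genes were set beside the receptors to show how far the receptors moved with them. The list holds 16 genes of cytotoxic granules, transcription factors and NK surface proteins, and each of the 16 had more CPM in the Ch25h-/- library. Their log2 ratios ran from 0.48 to 1.20 around a median of 0.68. Called higher were 2 of 16, the chymase gene Cma1 (1.08) and the chemokine gene Xcl1 (1.20), against 2.07% of all measured genes. Gzmb, encoding granzyme B, was the most abundant at 4356 and 7429 CPM. Of the 25 measured receptors, 20 lay above the list's median. Klra3, Klrc2, Ncr1, Klra10 and Klra7 lay above its highest gene, Xcl1, whose interval (0.96 to 1.45) overlapped that of each.

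For every 100 counts of that list, the C57BL/6 library held 15.2 receptor counts (15.0 to 15.3) and the Ch25h-/- library 18.2 (18.0 to 18.3). Without Gzma, Gzmb, Prf1 and Ccl5, the reference gave 51.5 (50.9 to 52.2) and 60.9 (60.3 to 61.5). For Ncr1 alone the values were 1.05 (1.01 to 1.09) and 1.82 (1.78 to 1.86) per 100 counts of the full list. The receptors were thus more abundant relative to these NK genes too, by 0.26 on the log2 scale for all members and 0.79 for Ncr1.

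Adaptor and signalling genes of the pathway differed less. Of 20 measured, 2 were called higher and 1 lower, against 2.07% and 5.77% of all measured genes, and the median log2 ratio was 0.21. The higher genes were Sh2d1a (13.6 and 32.6 CPM, 1.27) and Sh2d1b2 (7.42 and 16.4 CPM, 1.14), which encode the adaptors SAP and ERT of the SLAM receptors. The phospholipase gene Plcg1 was lower (68.3 and 29.9 CPM, -1.19). None of the direct partners of the activating receptors reached 2-fold. Tyrobp (DAP12) had 230 and 267 CPM (0.22, interval 0.15 to 0.28) and Cd247 (CD3 zeta) had 116 and 159 CPM (0.46, interval 0.37 to 0.54), both with intervals above 0. Those of Hcst (DAP10), at 12.9 CPM in each library (interval -0.29 to 0.28), and Fcer1g, at 405 and 419 CPM (0.05), included 0. Myeloid cells also express Tyrobp, Fcer1g and the kinase gene Syk, which had 982 and 596 CPM (-0.72).

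Ligand genes did not share the receptors' direction as a group. Of 8 measured ligand genes, none was called higher and 1 was called lower, against 2.07% and 5.77% of all measured genes. These counts are near those shares, and the median log2 ratio was -0.09. H2-K1, encoding the class I heavy chain that Ly49C and Ly49I bind in C57BL/6 mice, had 4923 and 4374 CPM (-0.17), and H2-T23, encoding Qa-1, had 603 and 577 CPM (-0.06). Ulbp1, encoding the NKG2D ligand MULT1, had 14.6 and 24.7 CPM (0.76, interval 0.53 to 0.997). Clec2g was lower, at 3.56 and 1.07 CPM (-1.73), Clec2i, encoding the NKR-P1F ligand Clr-g, had 74.4 and 59.5 CPM (-0.32), and Clec2d, encoding Clr-b, had 111 and 131 CPM (0.24). The 13 NK receptor genes of other families that were measured had a median of 0.29. None was called higher or lower, which is also near the shares over all measured genes. Cd226, encoding DNAM-1, had 8.65 and 16.3 CPM (0.92).

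**Figure D4:**
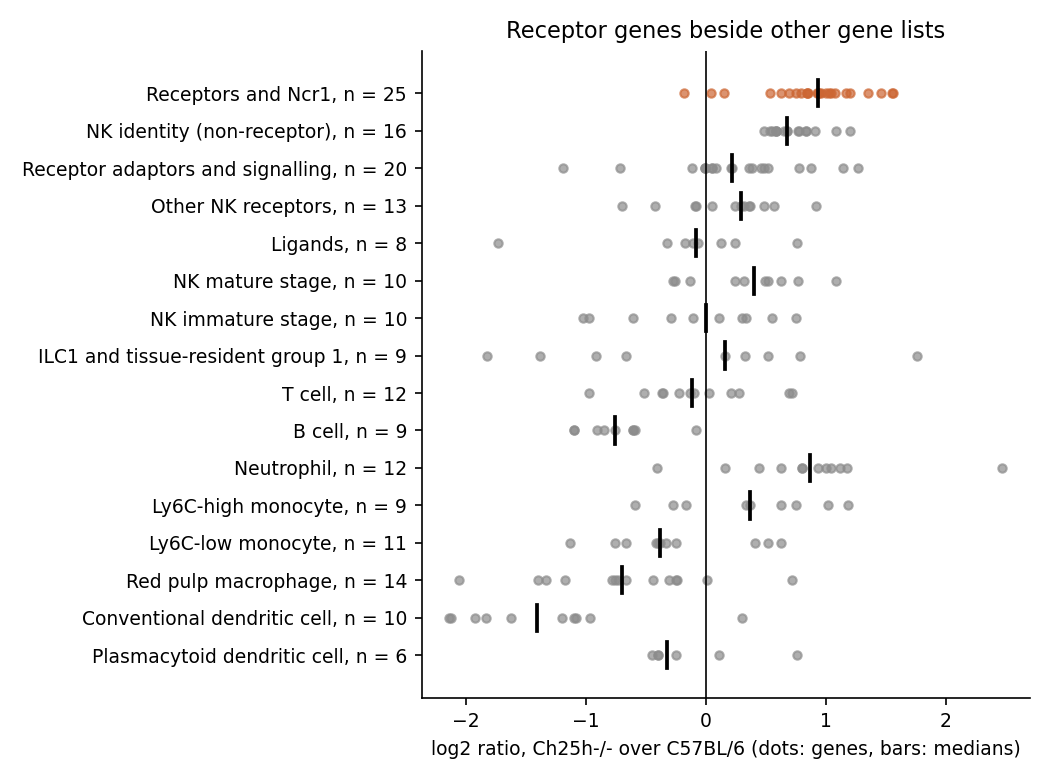
log2 ratio of Ch25h-/- over C57BL/6 for measured genes (dots) and their median (bars) in the receptor set and in 15 further gene lists. The receptors, with a median of 0.93, lie to the right of 0 except Klri1. The NK identity list has a median of 0.68 and the neutrophil list one of 0.87. The lists of dendritic cells and red pulp macrophages lie mostly to the left.

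The sorted cells are labelled macrophages, so markers of several cell types were examined. In the Ly6C-low monocyte list 11 of 11 genes were measured (median -0.39, summed level 2434 and 2914 CPM), and in the red pulp macrophage list 14 of 14 (median -0.70, 766 and 546 CPM). Log2 ratios in the Ly6C-low list were below 0 for 8 genes and above 0 for 3. Those 3, Itgal (1341 and 1784 CPM), Spn (471 and 676 CPM) and Cx3cr1 (31.9 and 49.2 CPM), raised its sum. Conventional dendritic cell markers had a median of -1.41 (10 of 12 measured), and the unmeasured genes Xcr1 (0 and 6 counts) and Clec9a (5 and 13 counts) had more counts in the Ch25h-/- library. B cell markers had a median of -0.76 (9 of 9). Neutrophil markers had a median of 0.87 (12 of 12, summed level 1217 and 2135 CPM) and Ly6C-high monocyte markers one of 0.37 (9 of 9, 2659 and 3496 CPM). Called higher were 5 of 12 neutrophil and 2 of 9 Ly6C-high monocyte markers, against 2.07% of all measured genes. None of either list was called lower, against 5.77%. Higher levels in the Ch25h-/- library were thus not particular to NK genes. In the plasmacytoid dendritic cell list, whose cells are known to carry Ly49Q, 6 of 8 genes were measured (median -0.32), and the defining gene Siglech was at 0 counts in both libraries.

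T cells also express Klrk1, Klrg1 and the Klrc genes in some states. Their list was low in both libraries, with a summed level of 159 and 125 CPM over 12 genes, a median log2 ratio of -0.12 and Cd3e at 6.49 and 7.51 CPM. Most of that sum came from Tcf7 (68.0 and 34.7 CPM), also on the list of immature NK stages, and Lef1 (36.5 and 37.1 CPM). Of the 12 intervals, 2 lay above 0 (Cd8a and Bcl11b), 2 lay below (Cd4 and Tcf7) and 8 included 0. The list of immature NK cell stages had a median of 0.00 over 10 genes, with Il7r lower (137 and 67.2 CPM, -1.03) and Cd27 at 0.75. Mature stage genes had one of 0.40 over 10 genes, with Cma1 called higher. In that list Zeb2 (-0.25), S1pr1 (-0.27) and Prdm1 (-0.14) had intervals wholly under 0. Genes of group 1 innate lymphoid cells, which carry NKp46 as well, had a median of 0.16 over 9 measured genes. Among them Cxcr6 was higher (3.10 and 10.5 CPM, 1.76) and Tmem176a (-1.82) and Tmem176b (-1.39) were lower. Some of these genes stand on more than 1 list (Gzmb, Cma1, Tcf7, Cx3cr1 and Spn among them). The part of any cell type's share in the receptor ratios was not tested.

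Most members sit close together, in the NK gene complex. From Klrb1a to Klra2, chromosome 6 from 128609227 to 131247362 holds 24 of the members and 38 other genes of the table. Of those 38, 12 were measured, with a median log2 ratio of -0.13, none called higher and 1 called lower (Clec2g). Among all measured genes 2.07% were called higher and 5.77% lower, and counts of 0 and 1 of 12 are near those shares. The 23 measured members inside the stretch had a median of 0.93 and 8 called higher. Close neighbours differed, as Klri1 (-0.19) lies between Klrc1 (0.95) and Klri2 (0.84). The early activation gene Cd69, inside the same stretch, had 185 and 175 CPM (-0.08), and the myeloid lectin genes Clec12a and Clec7a had ratios of 0.38 and -0.17. Highest of the 12 was BC035044, with 11.3 and 18.9 CPM (0.75, interval 0.48 to 1.02). Its ratio was above those of the receptor genes Klrb1b, Klra9 and Klrk1.

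**Figure D5:**
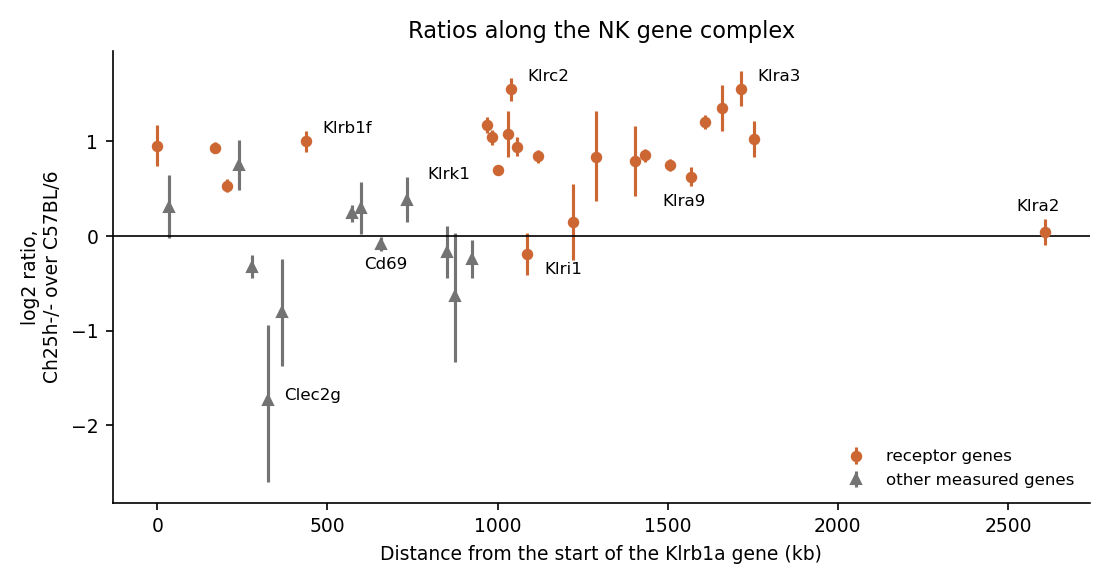
log2 ratio of Ch25h-/- over C57BL/6 (bars exact 95% counting intervals) against distance from the start of Klrb1a for the measured genes of the NK gene complex, with receptor genes as circles and other genes as triangles. Receptor genes lie above 0 except Klri1, at -0.19, with Klra2 near 0 at the far end, and the 12 other genes lie on both sides of 0.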

How the data were processed

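Per the labels' protocols, TRIzol was used to isolate RNA of the sorted cells, and a KAPA RNA HyperPrep kit to build the libraries. Tools listed in the submitters' processing notes are FastQC 0.11.9, GSNAP, Subread 1.5.2 with featureCounts, and edgeR 3.26.8, with builds GRCm38 and mm10. The deposited values are raw whole counts of reads per gene and were not altered. Strand setting and treatment of multiply matching reads are not given in the sources used here.

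Counts were scaled to CPM with TMM (edgeR 4.0.16, R 4.3.3). Ratios carry no prior count. Clopper-Pearson 95% intervals came from scipy 1.17.1. They cover counting error only, since each genotype has 1 library. Without molecular identifiers reads need not be separate molecules, so the intervals may be too narrow even for that error. All 27 IDs matched GENCODE M21, whose merged exons gave lengths for RPKM. Sequence sharing was counted over all windows of 50 or 100 bases of GENCODE transcripts, on both strands. The calculation was tested on simulated counts.

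All members are named, and of each list the genes with the largest ratios in size and the most abundant one may be named; other list genes (Tyrobp, Hcst, Fcer1g, Xcr1, Clec9a, Zeb2, S1pr1, Prdm1, Siglech, Clec2i, Cd247, Cd3e, Cd27, Clec2d, Cd69, Clec12a, Clec7a, H2-T23 and the genes named for overlap between lists among them) were chosen after their values were seen. The members, lists and thresholds were chosen with earlier results of these data known. Alternatives were DESeq2 1.42.0 size factors, other scalings, filters, a prior count of 2 and other call rules; sums per kb of exon were added after seeing the data.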

Additional observations from a re-analysis of the deposited data

How the results depend on the processing

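The count of 9 members called higher lay between 8 and 10 under 4 other scalings, 2 other filters and a prior count of 2. Total counts dropped Klra1, and upper quartile scaling or TMM without the members and the NK identity list added Klrb1f. An interval wholly beyond 2-fold left 6 (Klra3, Klra7, Klra10, Klrc2, Klre1 and Ncr1), against 0.560% of all measured genes, and at least 1.5-fold gave 21. Activating over inhibitory Ly49 counts became 1.26 for C57BL/6 and 1.05 for Ch25h-/- without Klra2 and Klra17, which by construction removes inhibitory counts. Summing per kb of exon, chosen after seeing the data, gave an NKG2 log2 change of 0.30 in place of 0.52. Each scaling shifted all member log2 ratios by the same amount, at most 0.03, and the filters left them unchanged. No member changed sign in 174 recomputed values. The ratio nearest 0, that of Klra2 at 0.04, was larger than any of these shifts, so this is no check of direction. No symbol among the members marks a pseudogene, so the alternative without pseudogenes was not run. No paired analysis was possible because each genotype has 1 library. Among measured members, counting intervals were widest for Klra5, Klra6 and Klra17.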
